A study of Mus musculus with 20 samples.

Results

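Interferon-stimulated genes, 37 genes chosen by symbol, were followed through mouse heart tissue after 2 kinds of cardiac injury and their sham operations. All 37 symbols were matched to 1 ID each among the 63318 IDs of the deposited gene count table, and all 37 passed the filter on low counts. The injuries were myocardial infarction (MI), sampled 72 h after surgery, and ischemia-reperfusion (IR), for which the labels give "LCA" (not spelled out) of 40 min followed by 72 h in which blood flow was restored (reperfusion). Each injury had its own sham group (MISham and IRSham), with 4 short-read poly(A) RNA libraries per group. Tissue of MI and MISham came from the infarct core together with its surroundings, and tissue of IR and IRSham from the core region alone, so the kind of injury and the sampled region cannot be told apart. Strain, sex, age and agents are not given in the labels. The labels do not say whether the libraries of a group came from separate animals, so the p-values rest on variation from library to library, which may be technical. The total count was 24273984 to 27569120 per library in MISham, 57215382 to 63070805 in MI, 25518543 to 29759773 in IRSham and 26175373 to 31832969 in IR. Cardiomyocyte markers were abundant in every library and all 8 of them fell in both injuries, while 12 of 13 monocyte and macrophage markers rose in MI and 11 in IR.

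Interferons are secreted cytokines that bind receptors on nearly every cell type. Type I interferons activate JAK kinases, which phosphorylate STAT proteins, and a complex that holds STAT2 and IRF9 binds the interferon-stimulated response element (ISRE) in target promoters. Interferon gamma acts chiefly through another element, the gamma-activated site (GAS). The induced genes encode antiviral effectors, sensors of nucleic acids, transcription factors that amplify the response, and secreted proteins. In the infarcted mouse heart, such a response is known to arise in macrophages that take up the DNA of dying cells.

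The promoter sequences of a few of these genes show the shared element through which they are known to be induced. RefSeq windows (GRCm38.p6) from 250 bases before to 50 bases after a transcription start were matched for 27 of the 37 genes; Parp14, Zbp1, Rtp4, Usp18, Mx2, Oas2, Ifi27l2a, Mx1, Dhx58 and Ifi204 had none in the table. The 7 windows below belong to the gene for the ubiquitin-like protein ISG15, the chemokine gene with the largest response, the OAS gene with the largest response in MI, a pair of near-identical IFIT genes, and a pair of guanylate-binding protein genes with small responses. Each is written 5′ to 3′ on the strand of the gene, and capitals mark matches on either strand to the ISRE core, which is GAAA, then any 2 bases, then GAAA, where overlapping matches run together. The Isg15 window lies at chr4:156200769-156201068 (minus strand), that of Cxcl10 at chr5:92348840-92349139 (minus strand), that of Oas3 at chr5:120777610-120777909 (minus strand), that of Ifit3 at chr19:34583279-34583578 (plus strand), that of Ifit3b at chr19:34607707-34608006 (plus strand), that of Gbp2 at chr3:142620413-142620712 (plus strand) and that of Gbp7 at chr3:142530086-142530385 (plus strand).
Isg15: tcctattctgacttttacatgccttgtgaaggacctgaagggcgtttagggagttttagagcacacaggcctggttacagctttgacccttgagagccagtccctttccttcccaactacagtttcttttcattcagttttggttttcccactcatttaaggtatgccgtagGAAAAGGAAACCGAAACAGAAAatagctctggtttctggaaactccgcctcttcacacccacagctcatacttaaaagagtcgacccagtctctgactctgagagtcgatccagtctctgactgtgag
Cxcl10: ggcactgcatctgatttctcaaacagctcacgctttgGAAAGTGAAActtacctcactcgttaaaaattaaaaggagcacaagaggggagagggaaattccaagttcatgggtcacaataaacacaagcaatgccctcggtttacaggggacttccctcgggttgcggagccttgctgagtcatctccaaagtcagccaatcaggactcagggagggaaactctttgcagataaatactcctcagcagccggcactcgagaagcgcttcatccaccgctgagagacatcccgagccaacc
Oas3: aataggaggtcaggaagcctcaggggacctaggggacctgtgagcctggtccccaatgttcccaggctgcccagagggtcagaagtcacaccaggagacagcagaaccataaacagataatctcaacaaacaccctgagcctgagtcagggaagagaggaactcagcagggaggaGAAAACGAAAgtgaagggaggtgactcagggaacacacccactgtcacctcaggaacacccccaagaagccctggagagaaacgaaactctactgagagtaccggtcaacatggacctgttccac
Ifit3: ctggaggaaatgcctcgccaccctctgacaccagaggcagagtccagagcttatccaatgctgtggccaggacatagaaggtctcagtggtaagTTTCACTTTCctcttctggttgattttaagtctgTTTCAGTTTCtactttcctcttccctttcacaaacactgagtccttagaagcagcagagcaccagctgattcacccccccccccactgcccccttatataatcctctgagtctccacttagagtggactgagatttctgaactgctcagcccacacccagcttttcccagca
Ifit3b: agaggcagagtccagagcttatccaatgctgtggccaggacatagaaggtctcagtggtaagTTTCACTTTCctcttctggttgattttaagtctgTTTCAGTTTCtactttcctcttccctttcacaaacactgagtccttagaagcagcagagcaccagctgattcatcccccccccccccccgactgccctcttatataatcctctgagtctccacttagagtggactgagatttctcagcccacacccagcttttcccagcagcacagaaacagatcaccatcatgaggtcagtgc
Gbp2: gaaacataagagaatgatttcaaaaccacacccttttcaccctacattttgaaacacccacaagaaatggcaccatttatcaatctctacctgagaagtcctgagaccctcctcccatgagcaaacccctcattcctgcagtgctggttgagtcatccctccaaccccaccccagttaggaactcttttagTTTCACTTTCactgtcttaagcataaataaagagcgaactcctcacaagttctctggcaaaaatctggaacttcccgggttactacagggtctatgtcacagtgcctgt
Gbp7: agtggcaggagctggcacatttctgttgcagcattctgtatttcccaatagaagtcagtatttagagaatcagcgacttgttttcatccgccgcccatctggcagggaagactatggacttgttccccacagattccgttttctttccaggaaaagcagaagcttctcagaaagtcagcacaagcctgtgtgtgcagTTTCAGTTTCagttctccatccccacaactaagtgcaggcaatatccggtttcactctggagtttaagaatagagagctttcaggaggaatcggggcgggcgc
Isg15 held 3 overlapping matches, whose first bases lay 78, 72 and 66 bases before the start. Ifit3 and Ifit3b each held 2 matches on the reverse strand, first at bases -156 and -122 in Ifit3 and at -188 and -154 in Ifit3b. Gbp7 held an ISRE core at base -53 and 2 matches to the GAS letters TTCNNNGAA, a motif that is its own reverse complement, at -106 and -87. A match is a description of letters and not a mapped binding site.

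The ISRE core was found in 16 of the 27 genes with a window (59.3%), against 3.99% of the 27025 genes in the promoter table. GAS letters were found in 7 of the 27 (25.9%), against 9.55% of all genes, and no GAS match shared all its bases with an ISRE match; in Bst2 the GAS match at -136 to -128 ran into the first ISRE core at -130. Both motifs were present in 4 genes: Bst2, Oas1a, Gbp7 and Eif2ak2. Most ISRE cores lay within the window upstream of the start, and those of Ifih1, Eif2ak2 and 1 of the 2 windows of Trim30a lay after it.

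**Figure D1:**
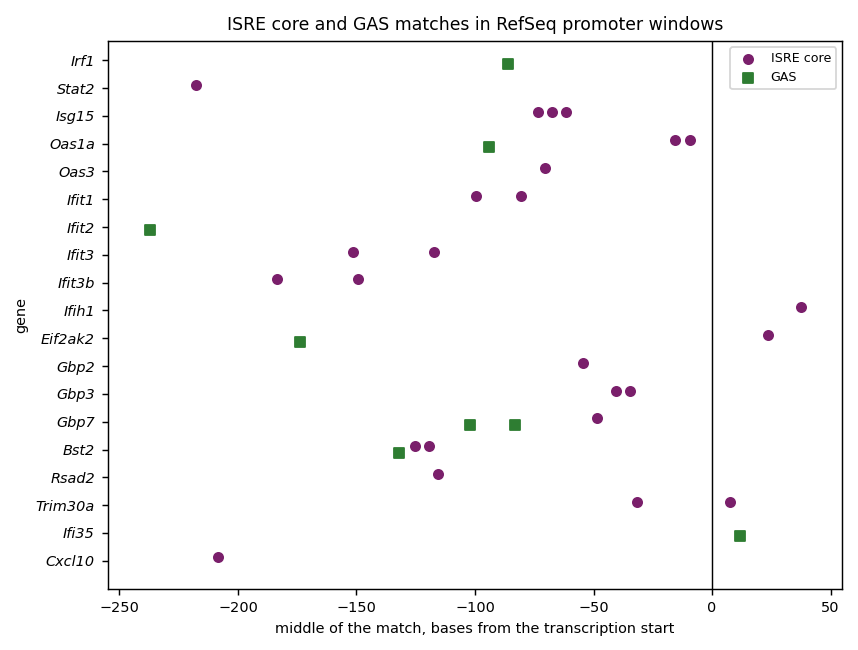
Positions of ISRE core and GAS matches in the RefSeq promoter windows of the genes with at least 1 match. The horizontal axis gives the middle of each match in bases from the transcription start (vertical line), circles are ISRE cores and squares are GAS letters. The ISRE cores of Isg15, Oas1a, Bst2 and Gbp3 overlap each other.

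After MI, 21 of the 37 genes rose and 0 fell, and all 37 had a higher fitted level in MI than in MISham. After IR, 18 rose and 0 fell, and 36 of the 37 had a higher fitted level in IR than in IRSham. A call required an adjusted p under 0.05 by edgeR's quasi-likelihood test with Benjamini-Hochberg adjustment over the 19741 genes tested. Of all genes tested, 34.8% were called higher and 30.2% lower in MI, and 29.5% higher and 28.2% lower in IR. The share of these genes called higher was thus 56.8% in MI and 48.6% in IR, beside those backgrounds. Their median log2 fold change was 0.69 in MI and 0.54 in IR, against 0.08 and 0.03 over all genes tested. Scaling by library size alone, without TMM, raised the median of all genes by 0.31 in MI and 0.29 in IR. With it, 33 and 27 of the 37 genes were called higher and 0 lower. Of the 19741 genes tested, 9318 were then called higher in MI and 8411 in IR, against 6861 and 5814 with TMM. The share of higher genes among all calls went from 53.5% to 68.6% in MI and from 51.1% to 69.1% in IR. Relative to the median of all genes, the median of the 37 genes was 0.60 higher in MI and 0.50 higher in IR with TMM, and 0.61 and 0.50 with library size alone. The MI libraries were sequenced more deeply than the MISham libraries (a total count of at least 57215382 against at most 27569120), and the part of depth in the MI values was not tested. In bulk tissue, more cells of a type and more RNA per cell cannot be told apart.

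In both injuries 16 genes were called: Isg15, Usp18, Oas1a, Oasl2, Ifit2, Dhx58, Eif2ak2, Bst2, Samd9l, Trim30a, Ifi44, Ifi204, Rtp4, Irf9, Cxcl10 and Lgals3bp. Oas3, Stat2, Mx1, Ifih1 and Parp14 were called in MI alone, Ifit3 and Rsad2 in IR alone, and 14 genes in neither. The difference of the 2 responses was tested directly, and 0 genes passed in either direction, with 0 at an unadjusted p under 0.05 and 0 by DESeq2 (0.117% and 0.076% of all genes were called higher and lower). The fitted differences ranged from -0.46 ± 0.31 (SE) for Rsad2 to 0.65 ± 0.82 for Oas3, and the lowest adjusted p was 0.485, for Usp18. These standard errors are too wide to show that the 2 injuries act alike on a given gene.

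**Figure D2:**
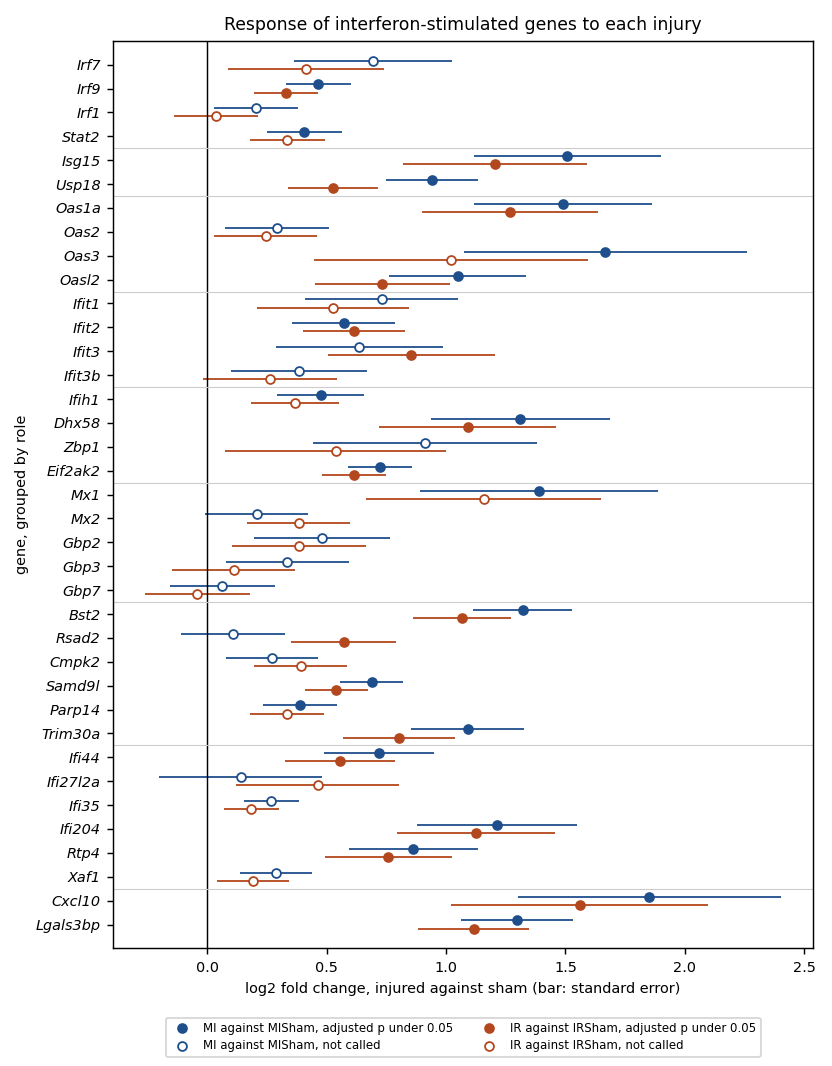
Log2 fold change of each gene in MI against MISham (blue) and in IR against IRSham (red). Bars are standard errors from the edgeR fit of all 16 libraries together (4 per group). Filled points have an adjusted p under 0.05 by edgeR's quasi-likelihood test (21 in MI and 18 in IR); genes are grouped by role, and only Gbp7 in IR lies below 0.

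The sham libraries did not have 1 common level of these genes, and this bears on every value that follows. In IRSham, replicate 3 had the highest level of 35 of the 37 genes, and in MISham replicate 1 had the highest level of 31. Of the injured libraries, MI replicate 2 was highest for 31 genes and IR replicate 2 for 34, while MI replicate 3 was lowest for 32. Leaving out IRSham replicate 3 raised the number of genes called in IR from 18 to 29 (the 18 and a further 11), and leaving out IRSham replicates 3 and 4 together raised it to 32. The calls over all genes with libraries left out are not given here. How far such changes are particular to these genes therefore cannot be read from the counts. Without IRSham replicate 1, IRSham replicate 2 or IR replicate 2, 8 genes were called in IR: Isg15, Bst2, Oas1a, Ifi204, Trim30a, Lgals3bp, Eif2ak2 and Samd9l. These 8 were called in both injuries whichever single library was left out. In MI the number called ranged from 15 to 25 over the libraries left out, and 15 genes were called each time. The 6 genes whose MI call was lost without at least 1 library were Oas3, Ifit2, Stat2, Mx1, Ifih1 and Parp14, and the 10 in IR were Oasl2, Ifit2, Ifit3, Ifi44, Irf9, Rsad2, Usp18, Rtp4, Dhx58 and Cxcl10. DESeq2 did not call Stat2, Ifih1 or Parp14 in MI or Irf9 in IR. With no filter on low counts the same 6 calls were lost in MI, and all of those 10 but Usp18 in IR.

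**Figure D3:**
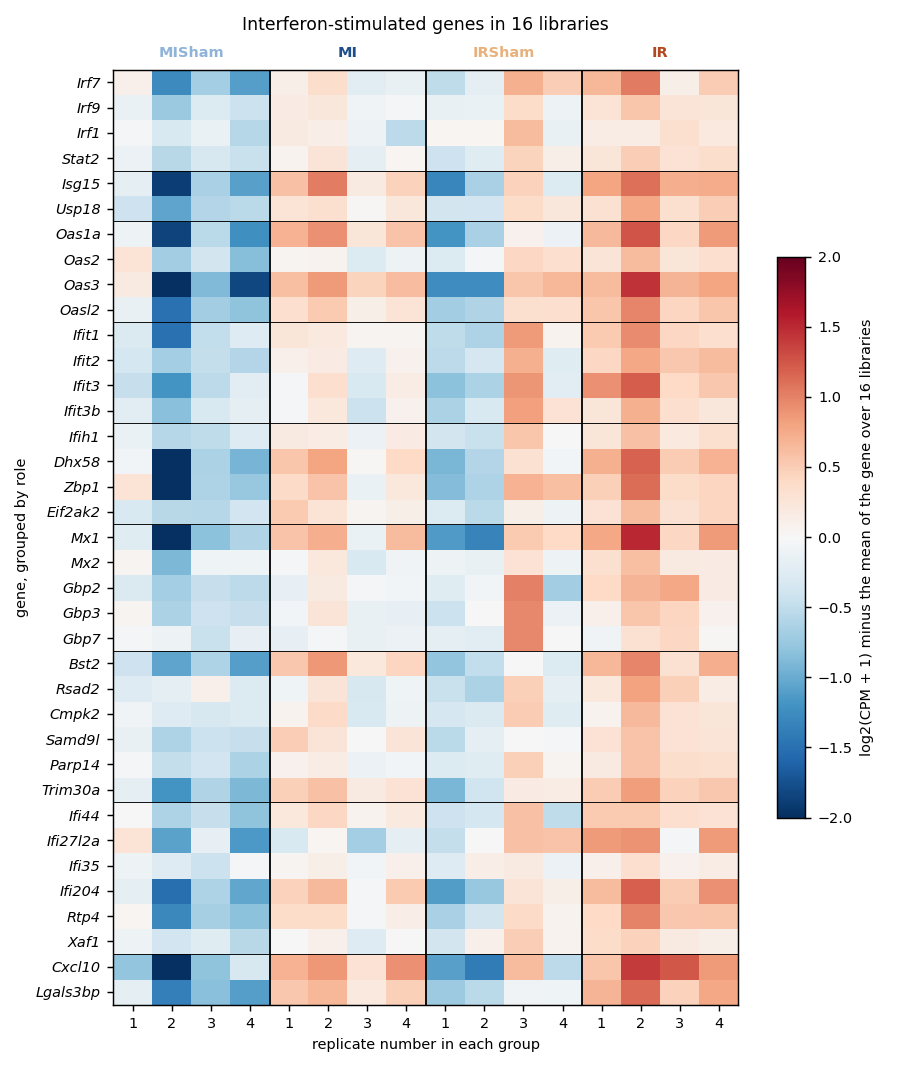
Level of each gene in each of the 16 libraries, as log2(CPM + 1) minus the gene's mean over all libraries (CPM is the TMM-scaled counts-per-million value). Columns are replicates 1 to 4 of each group and rows are genes grouped by role; IRSham replicate 3 is red for most rows among the sham columns, and MISham replicate 2 is the darkest blue column.

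Among the transcription factors of the response, Irf9 rose in both injuries and Stat2 in MI, while Irf7 and Irf1 were called in neither. Irf9, the DNA-binding subunit of the complex that binds the ISRE, stood at 42.1, 27.3, 38.1 and 34.1 CPM in MISham replicates 1 to 4 and at 51.9, 54.3, 44.1 and 45.1 CPM in MI. It stood at 41.5, 42.3, 59.9 and 42.9 CPM in IRSham and at 56.1, 68.1, 55.5 and 54.8 CPM in IR. The MI libraries all lay above the MISham libraries, whereas IRSham replicate 3 lay above 3 of the 4 IR libraries. The log2 fold change was 0.46 ± 0.14 (SE) in MI, with an adjusted p of 0.00642, and 0.33 ± 0.14 in IR, with an adjusted p of 0.0463. The IR call of Irf9 was lost by DESeq2 (adjusted p = 0.0531), with no filter on low counts, and without any single IR or IRSham library other than IRSham replicate 3.

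Stat2, the signal transducer that joins Irf9 in that complex, stood at 55.3, 40.7, 47.7 and 43.8 CPM in MISham and 62.9, 71.6, 52.1 and 61.9 CPM in MI. Its IRSham libraries held 44.5, 50.6, 81.9 and 65.2 CPM and its IR libraries 71.0, 84.9, 73.2 and 76.4 CPM. Replicate 1 of MISham lay above the lowest MI library, and IRSham replicate 3 above 3 IR libraries, so both pairs of groups overlapped. The change was 0.41 ± 0.16 in MI (adjusted p = 0.0324) and 0.34 ± 0.16 in IR (adjusted p = 0.0789, not called; called without IRSham replicate 3). The MI call of Stat2 was lost by DESeq2 (adjusted p = 0.0607), with DESeq2 size factors, with no filter on low counts, and without MISham replicate 2, 3 or 4 or MI replicate 1, 2 or 4.

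Irf7, which drives the amplification of type I interferon, was at 58.8, 22.1, 33.9 and 25.005 CPM in MISham and 59.5, 70.5, 47.0 and 49.3 CPM in MI. In IRSham it was at 38.4, 48.3, 90.7 and 77.8 CPM and in IR at 87.9, 114, 59.3 and 78.3 CPM. IRSham replicates 3 and 4 were about as high as the middle IR libraries, and MISham replicate 1 as high as the middle MI libraries. The fitted changes were 0.69 ± 0.33 (adjusted p = 0.0814) and 0.41 ± 0.33 (adjusted p = 0.303). Irf1, a factor strongly induced by interferon gamma, was at 26.7, 22.04, 25.1 and 18.2 CPM in MISham, 31.5, 30.3, 25.6 and 18.8 CPM in MI, 28.2, 28.4, 43.1 and 24.7 CPM in IRSham and 30.6, 30.7, 34.5 and 31.8 CPM in IR. IRSham replicate 3 exceeded every IR library for Irf1, and the fitted changes were 0.20 ± 0.18 in MI (adjusted p = 0.324) and 0.04 ± 0.18 in IR (adjusted p = 0.876).

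Isg15, which encodes a ubiquitin-like protein attached to other proteins, and Usp18, the protease that removes it and dampens interferon receptor signalling, rose in both injuries. Isg15 stood at 15.4, 4.05, 10.9 and 7.79 CPM in MISham and at 27.1, 36.8, 20.2 and 24.6 CPM in MI. It stood at 6.52, 10.9, 24.7 and 14.4 CPM in IRSham and at 31.2, 39.0, 29.8 and 30.2 CPM in IR. Every injured library lay above every library of its sham group, and the highest sham library of each group held 3.80-fold (MISham) and 3.78-fold (IRSham) the level of the lowest. Isg15 changed by 1.51 ± 0.39 in MI (adjusted p = 0.00369) and by 1.20 ± 0.39 in IR (adjusted p = 0.0155).

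Usp18 was at 8.14, 4.86, 7.16 and 7.37 CPM in MISham and 13.8, 14.3, 11.4 and 13.4 CPM in MI. Its IRSham libraries held 8.43, 8.41, 14.7 and 13.3 CPM and its IR libraries 14.1, 19.8, 14.3 and 16.3 CPM. The MI and MISham libraries did not overlap; IRSham replicate 3 lay above the 2 lowest IR libraries. Usp18 changed by 0.94 ± 0.19 in MI (adjusted p = 0.000344) and by 0.53 ± 0.19 in IR (adjusted p = 0.0246).

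Of the 4 oligoadenylate synthetase (OAS) genes, 3 rose in MI and 2 in IR; these enzymes answer double-stranded RNA by making the oligoadenylate that activates RNase L. Oas1a stood at 16.8, 4.32, 12.3 and 7.23 CPM in MISham and 30.2, 35.2, 21.7 and 27.7 CPM in MI, and at 7.42, 11.3, 19.5 and 16.7 CPM in IRSham and 29.1, 44.8, 24.7 and 33.5 CPM in IR. No injured library overlapped its sham group, and the changes were 1.49 ± 0.37 (adjusted p = 0.00277) and 1.27 ± 0.37 (adjusted p = 0.0087). Of the 50-base stretches of the annotated Oas1a transcripts, 57.6% also occur in Oas1g, so counts of these 2 genes are uncertain. Oas3 had the widest sham range of the family, 13.2, 1.62, 5.83 and 2.57 CPM in MISham and 4.35, 4.31, 17.4 and 19.0 CPM in IRSham, beside 18.1, 21.7, 16.2 and 18.4 CPM in MI and 18.4, 33.2, 19.1 and 20.7 CPM in IR. IRSham replicates 3 and 4 were 4.03-fold and 4.39-fold as high as the mean of replicates 1 and 2, and replicate 4 lay above IR replicate 1. Oas3 changed by 1.67 ± 0.59 in MI (adjusted p = 0.024), and the fitted change in IR was 1.02 ± 0.57 (adjusted p = 0.147).

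Oas2 was called in neither injury. It stood at 51.5, 25.8, 32.6 and 22.999 CPM in MISham and 44.0, 44.4, 34.8 and 39.5 CPM in MI, where MISham replicate 1 exceeded every MI library. The IRSham libraries stood at 34.8, 41.6, 56.8 and 53.6 CPM and in IR at 50.6, 66.6, 50.5 and 53.6 CPM, with IRSham replicate 3 above 3 of the 4 IR libraries. The fitted changes were 0.29 ± 0.22 (adjusted p = 0.254) and 0.24 ± 0.22 (adjusted p = 0.355). Oasl2, an OAS-like gene, rose from 32.6 ± 12.4 to 67.6 ± 8.27 CPM in MI (mean ± SD, n = 4) and from 51.2 ± 19.7 to 85.0 ± 15.2 CPM in IR, with no overlap in either pair.

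The IFIT proteins bind RNA that lacks the marks of host messenger RNA. Ifit2 rose in both injuries, Ifit3 in IR, and Ifit1 and Ifit3b were called in neither. Ifit1 stood at 16.7, 6.75, 14.4 and 17.1 CPM in MISham and 24.6, 23.7, 21.6 and 21.4 CPM in MI. Its IRSham libraries held 14.2, 13.1, 38.0 and 21.7 CPM and its IR libraries 30.3, 40.9, 27.9 and 26.3 CPM. The 4 MI libraries lay above the 4 MISham libraries, and IRSham replicate 3 lay above 3 IR libraries. The fitted changes of Ifit1 were 0.73 ± 0.32 (adjusted p = 0.0591) and 0.53 ± 0.32 (adjusted p = 0.173); without IRSham replicate 3 it was called in IR.

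Ifit3 was at 21.1, 12.3, 20.3 and 25.1 CPM in MISham and 28.9, 37.5, 23.6 and 32.6 CPM in MI. In IRSham it was at 16.1, 18.5, 55.2 and 25.1 CPM and in IR at 56.1, 69.3, 39.1 and 43.2 CPM. IRSham replicate 3 was 3.18-fold as high as the mean of replicates 1 and 2 and lay above 2 IR libraries. Ifit3 changed by 0.85 ± 0.35 in IR (adjusted p = 0.0492), close to the threshold, and the fitted change in MI was 0.64 ± 0.35 (adjusted p = 0.126). Its neighbour Ifit3b was at 7.30, 4.36, 6.81 and 7.46 CPM in MISham, 8.39, 10.1, 6.14 and 9.24 CPM in MI, 5.21, 6.78, 16.0 and 10.7 CPM in IRSham and 10.4, 14.8, 11.1 and 10.2 CPM in IR. For Ifit3b, IRSham replicate 3 exceeded all 4 IR libraries and no change was called (adjusted p = 0.25 in MI and 0.445 in IR). Ifit3 shares 51.2% of its 50-base stretches with Ifit3b, which shares 44.5% of its own with Ifit3, so counts of this pair are uncertain.

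Among the 4 nucleic acid sensors, Dhx58 and Eif2ak2 rose in both injuries, Ifih1 rose in MI, and Zbp1 was called in neither. Dhx58 encodes LGP2 and Ifih1 encodes MDA5, both receptors of double-stranded RNA in the cytosol, and Eif2ak2 encodes the kinase PKR, which stops translation on meeting such RNA. Dhx58 rose from 8.01 ± 4.46 to 19.96 ± 4.48 CPM in MI and from 11.9 ± 4.83 to 25.3 ± 5.47 CPM in IR (mean ± SD, n = 4). Eif2ak2 changed by 0.72 ± 0.13 in MI (adjusted p = 0.000145) and by 0.61 ± 0.13 in IR (adjusted p = 0.000779), with no overlap in either pair. Ifih1 changed by 0.47 ± 0.18 in MI (adjusted p = 0.0325), and its fitted change in IR was 0.37 ± 0.18 (adjusted p = 0.0992).

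Zbp1, a sensor of Z-form nucleic acid that can start necroptosis, was at 18.8, 2.83, 9.72 and 8.77 CPM in MISham and 20.4, 23.4, 13.97 and 17.97 CPM in MI. Its IRSham libraries held 8.05, 9.68, 25.6 and 24.1 CPM and its IR libraries 21.9, 34.5, 20.2 and 21.1 CPM. MISham replicate 1 and IRSham replicates 3 and 4 lay among the injured libraries, and the other 5 sham libraries lay below all of them. The fitted changes were 0.91 ± 0.47 (adjusted p = 0.105) and 0.54 ± 0.46 (adjusted p = 0.344).

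Of the 5 large GTPase genes, Mx1 rose in MI and none of the 5 was called in IR by edgeR (DESeq2 called none either). Mx1 and Mx2 encode dynamin-like GTPases that trap viral components, and the guanylate-binding proteins Gbp2, Gbp3 and Gbp7 act on the vacuoles of intracellular pathogens. Mx1 stood at 10.9, 2.29, 7.05 and 8.35 CPM in MISham and 19.97, 22.5, 11.8 and 20.8 CPM in MI, without overlap. Levels in IRSham stood at 5.43, 4.62, 19.3 and 17.6 CPM and in IR at 23.2, 39.2, 17.8 and 24.5 CPM, and IRSham replicate 3 lay above the lowest IR library. Mx1 changed by 1.39 ± 0.50 in MI (adjusted p = 0.0252), and its fitted change in IR was 1.16 ± 0.49 (adjusted p = 0.0576). Mx2 was low, at 6.30, 2.79, 5.63 and 5.60 CPM in MISham, 5.88, 7.18, 4.70 and 5.72 CPM in MI, 5.54, 5.33, 7.57 and 5.56 CPM in IRSham and 7.79, 9.70, 6.97 and 6.85 CPM in IR. Both pairs of Mx2 groups overlapped, and the fitted changes were 0.21 ± 0.22 (adjusted p = 0.416) and 0.38 ± 0.22 (adjusted p = 0.14).

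Gbp2 was at 22.2, 16.8, 19.6 and 18.7 CPM in MISham and 24.2, 31.0, 26.5 and 26.2 CPM in MI, with every MI library above every MISham library. In IRSham it was at 23.04, 26.3, 56.2 and 16.5 CPM and in IR at 36.6, 44.6, 47.5 and 30.8 CPM. IRSham replicate 3 was the highest of all 16 libraries for Gbp2, while replicate 4 of the same group was the lowest. The fitted changes of Gbp2 were 0.48 ± 0.28 (adjusted p = 0.152) and 0.39 ± 0.28 (adjusted p = 0.259). Gbp7 stood at 29.7, 28.2, 21.9 and 26.8 CPM in MISham, 26.9, 29.3, 27.3 and 27.8 CPM in MI, 26.3, 25.8, 59.7 and 30.1 CPM in IRSham and 28.8, 37.6, 40.7 and 30.9 CPM in IR. Apart from IRSham replicate 3 all libraries lay between 21.9 and 40.7 CPM, and the fitted changes were 0.06 ± 0.22 and -0.04 ± 0.22, the latter turning to 0.33 (adjusted p = 0.03) without that library. Gbp3 was likewise highest in IRSham replicate 3, with IRSham levels of 15.5, 21.1, 42.2 and 19.4 CPM, and was called in neither injury; the ID that lies antisense to Gbp3 also had its highest count, 62, in IRSham replicate 3, against 7 to 24 elsewhere.

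Among 6 other effectors, Bst2, Samd9l and Trim30a rose in both injuries, Parp14 in MI and Rsad2 in IR, and Cmpk2 was called in neither. Bst2 encodes tetherin, which holds budding virions at the cell surface. It stood at 51.9, 33.1, 45.2 and 32.003 CPM in MISham and 102, 128, 80.5 and 94.4 CPM in MI, and at 39.7, 49.2, 69.5 and 57.1 CPM in IRSham and 111, 138, 86.4 and 116 CPM in IR. The lowest MI library was well above the highest MISham library, and the same held between IR and IRSham. Bst2 changed by 1.32 ± 0.21 in MI (adjusted p = 4.51e-05) and by 1.07 ± 0.20 in IR (adjusted p = 0.000379), the lowest adjusted p among these genes in both comparisons. Samd9l, a restriction factor of poxviruses, changed by 0.69 ± 0.13 and 0.54 ± 0.13, and Trim30a, a member of the tripartite motif family, by 1.09 ± 0.24 and 0.80 ± 0.24, without overlap in either pair.

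Rsad2 encodes viperin, which makes a chain-terminating nucleotide. It was at 37.2, 38.5, 47.7 and 36.7 CPM in MISham and 41.8, 53.4, 35.2 and 42.0 CPM in MI. Its IRSham libraries held 32.4, 28.5, 62.4 and 39.1 CPM and its IR libraries 51.6, 78.1, 62.5 and 49.2 CPM. MISham replicate 3 exceeded 3 of the MI libraries, and IRSham replicate 3 exceeded 2 of the IR libraries. Rsad2 changed by 0.57 ± 0.22 in IR (adjusted p = 0.0369), and its fitted change in MI was 0.11 ± 0.22 (adjusted p = 0.686). Cmpk2, a mitochondrial nucleotide kinase, had fitted changes of 0.27 ± 0.19 (adjusted p = 0.229) and 0.39 ± 0.19 (adjusted p = 0.0961). Parp14, an ADP-ribosyltransferase, changed by 0.39 ± 0.16 in MI (adjusted p = 0.0389), and its fitted change in IR was 0.34 ± 0.16 (adjusted p = 0.0777).

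Of 6 further interferon-induced proteins, Ifi204, Rtp4 and Ifi44 rose in both injuries, and Ifi27l2a, Ifi35 and Xaf1 were called in neither. Ifi204, a DNA-binding protein of the PYHIN family, stood at 29.8, 11.2, 21.8 and 16.0 CPM in MISham and 46.8, 53.9, 33.2 and 49.4 CPM in MI. It stood at 15.1, 19.7, 40.6 and 36.8 CPM in IRSham and 53.2, 78.7, 48.4 and 64.5 CPM in IR, and no injured library overlapped its sham group. The changes were 1.21 ± 0.33 (adjusted p = 0.0056) and 1.13 ± 0.33 (adjusted p = 0.00984). Related genes share 20.02% of the 50-base stretches of Ifi204, mostly Ifi211, so its count is uncertain to that extent.

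Ifi27l2a was at 55.6, 21.3, 40.9 and 20.1 CPM in MISham and 36.8, 47.1, 28.3 and 39.9 CPM in MI, where MISham replicate 1 exceeded all 4 MI libraries. Its IRSham libraries were at 32.6, 45.6, 69.5 and 68.7 CPM and in IR at 83.0, 86.7, 44.7 and 83.6 CPM, where 3 IR libraries lay above all of IRSham and IR replicate 3 lay near its low end. The fitted changes were 0.14 ± 0.34 (adjusted p = 0.74) and 0.46 ± 0.34 (adjusted p = 0.268). Rtp4 changed by 0.86 ± 0.27 and 0.76 ± 0.27, and Ifi44 by 0.72 ± 0.23 and 0.56 ± 0.23. The IR call of Ifi44 was close to the threshold (edgeR adjusted p = 0.0482), and IRSham replicate 3 lay above all 4 IR libraries. It was lost without any single IR or IRSham library other than IRSham replicate 3. Ifi35 had fitted changes of 0.27 ± 0.12 (adjusted p = 0.0513) and 0.18 ± 0.12 (adjusted p = 0.187), and Xaf1, which encodes a partner of the apoptosis inhibitor XIAP, of 0.29 ± 0.15 (adjusted p = 0.103) and 0.19 ± 0.15 (adjusted p = 0.294).

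Both genes of secreted proteins rose in both injuries. Cxcl10, a chemokine that draws T cells bearing CXCR3, stood at 4.33, 0.585, 4.25 and 6.39 CPM in MISham and 13.9, 15.7, 10.2 and 16.3 CPM in MI. In IRSham it was at 3.33, 2.46, 13.2 and 5.39 CPM and in IR at 12.4, 23.2, 20.8 and 15.5 CPM. MI and MISham did not overlap; IRSham replicate 3 lay just above IR replicate 1. Cxcl10 changed by 1.85 ± 0.55 in MI (adjusted p = 0.00883) and by 1.56 ± 0.54 in IR (adjusted p = 0.0227), the largest fold changes of the 37 genes in both.

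Lgals3bp, a secreted glycoprotein that binds galectins, was at 115, 50.7, 73.1 and 60.9 CPM in MISham and 192, 208, 151 and 184 CPM in MI. Its IRSham libraries held 78.9, 90.8, 126 and 125 CPM and its IR libraries 211, 291, 181 and 227 CPM. Neither pair of groups overlapped. Lgals3bp changed by 1.30 ± 0.23 in MI (adjusted p = 0.000191) and by 1.12 ± 0.23 in IR (adjusted p = 0.000816), and no ISRE core was found in its window.

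**Figure D4:**
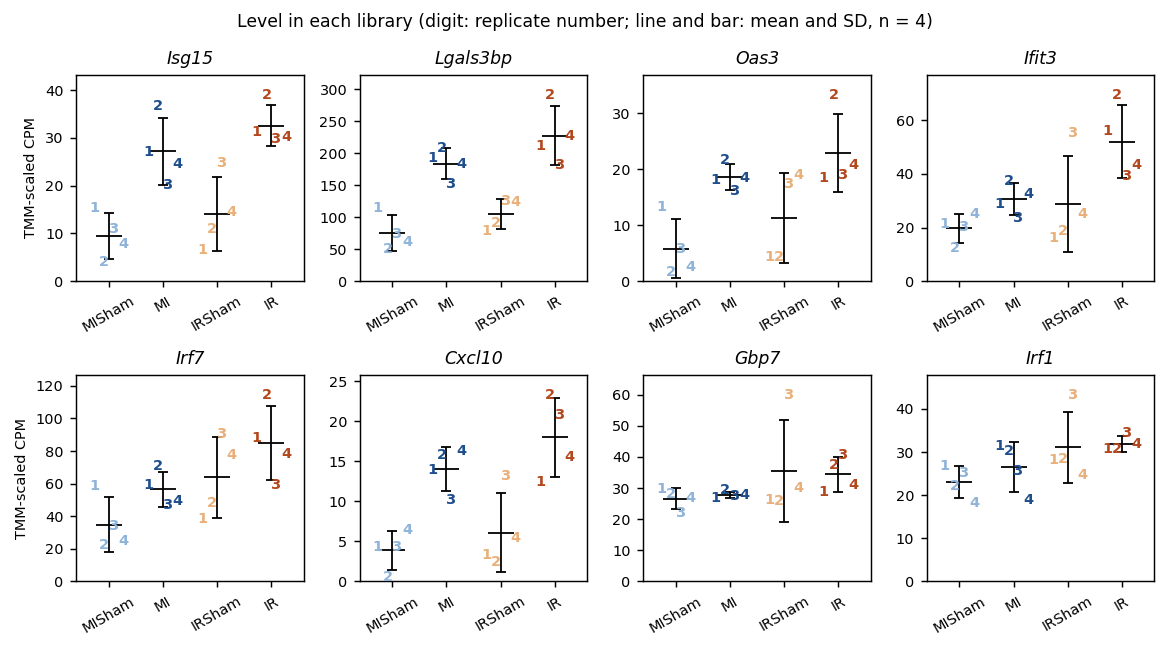
TMM-scaled CPM of 8 genes in each library. Digits are replicate numbers, the line and bar are the mean and SD of 4 libraries, and every vertical axis starts at 0. Isg15 and Lgals3bp part each injured group from its own sham group, Oas3 and Irf7 have high sham replicates (1 in MISham, 3 and 4 in IRSham), and Gbp7 and Irf1 are highest in IRSham replicate 3.

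Over all 37 genes, 20 had every MI library above every MISham library, where 34.1% of all genes tested did. In IR 11 of the 37 had every IR library above every IRSham library, near the 26.1% of all genes that did. Without IRSham replicate 3 the number was 29. Leaving out a library makes this easier to meet for any gene, and the share of all genes without that library is not given. The genes without overlap in IR were Isg15, Bst2, Oas1a, Oasl2, Ifi204, Rtp4, Dhx58, Trim30a, Lgals3bp, Eif2ak2 and Samd9l. By role, 9 of the 11 were effectors, sensors, OAS genes or other induced genes, and 0 were transcription factors, IFIT genes or large GTPases. As 11 of 37 is near the share of all genes, this split is not read as a result about the roles.

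The spread among sham libraries was wider for these genes than for most genes of like level. The ratio of the highest to the lowest library had a median of 1.86 over the 37 genes in MISham and 2.16 in IRSham, but 1.38 in MI and 1.45 in IR. Over the 10103 genes whose mean level lay in the same range (6.19 to 148 CPM), these 37 included, the medians were 1.24, 1.22, 1.17 and 1.27. A range of more than 2-fold was seen for 18 of the 37 genes in MISham and 23 in IRSham, where 7.54% and 4.66% of the 10103 genes had one. In MI 0 and in IR 1 of the 37 genes, Mx1, had such a range. The widest were those of Cxcl10, 10.9-fold in MISham and 5.36-fold in IRSham, and the narrowest were those of Cmpk2 in MISham (1.19-fold) and Ifi35 in IRSham (1.39-fold).

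IRSham replicate 3 exceeded the mean of IRSham replicates 1 and 2 for all 37 genes, by 1.99-fold at the median, from 1.19-fold for Ifi35 to 4.56-fold for Cxcl10. It was more than 1.5-fold higher for 30 of the 37, where 3.4% of 10102 genes of like level were. Replicate 4 exceeded that mean by 1.40-fold at the median, and by more than 1.5-fold for 16 genes, where 4.34% of like genes did. The 2 libraries did not raise the same genes alike. Oas3 was 4.03-fold higher in replicate 3 and 4.39-fold in replicate 4, Mx1 3.84-fold and 3.50-fold, and Zbp1 2.89-fold and 2.71-fold. Gbp2 instead was 2.28-fold higher in replicate 3 and at 0.669 of the mean in replicate 4, and Ifi44 stood at 2.06-fold and 0.907. Irf1 stood at 1.52-fold in replicate 3 and 0.871 in replicate 4. These genes were picked after their values were seen. In 7 genes IRSham replicate 3 lay above all 4 IR libraries: Ifit3b, Ifi44, Irf1, Xaf1, Gbp2, Gbp3 and Gbp7. Of all genes tested, 36.3% had IRSham replicate 3 above all 4 IR libraries. That share includes the 25.4% of all genes whose IR libraries all lay below the IRSham libraries, as 0 of the 37 did. It is therefore not a like background for the 7 of 37. The 90 other interferon-stimulated genes also stood highest in IRSham replicate 3, summing to 2198, 2454, 3633 and 2772 CPM in IRSham replicates 1 to 4 and to between 3473 and 4156 CPM in IR.

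In MISham, replicate 2 had the lowest level of 25 genes and replicate 1 the highest of 31. Replicate 1 exceeded all 4 MI libraries for Oas2, Ifi27l2a and Gbp7, 3 of the 37 genes, where 38.5% of all genes had it above. That share includes the 28.6% of all genes whose MI libraries all lay below the MISham libraries, as 0 of the 37 did. Summed over the 37 genes, the level was 1127, 654, 871 and 759 CPM in MISham replicates 1 to 4 and 1475, 1637, 1183 and 1377 CPM in MI. It was 841, 956, 1673 and 1264 CPM in IRSham and 1702, 2233, 1602 and 1745 CPM in IR. Injured and sham libraries did not overlap in MI, and IRSham replicate 3 lay above the lowest IR library.

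The sham groups were also compared with each other. All 37 genes had a lower mean in MISham than in IRSham and the lowest mean of the 4 groups in MISham, and IR had the highest mean for 36, with Gbp7 highest in IRSham. No gene was called: edgeR called 0 lower and 0 higher (0.866% and 2.34% of all genes), 12 were lower at an unadjusted p under 0.05, and DESeq2 called 1, Usp18. The median log2 difference was -0.49, the largest was that of Oas3 at -0.95 ± 0.60, and the lowest adjusted p was 0.0637, for Usp18 at -0.70 ± 0.20. Usp18 was also the 1 gene whose MISham libraries all lay below the IRSham libraries, where 4.19% of all genes did so. Without MISham replicate 1 the number called was 4 (Oas2, Irf7, Usp18 and Lgals3bp), without IRSham replicate 1 it was 2 (Usp18 and Xaf1), and without IRSham replicate 2 it was 1 (Usp18). The sampled region and the operation both differ between the sham groups and cannot be told apart.

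Levels can be set between genes on the transcripts-per-million (TPM) scale, which divides by length. By summed TPM of the annotated transcripts, Ifi27l2a was the most abundant, at 109 ± 68.6 in MISham, 216 ± 68.2 in MI, 177 ± 60.4 in IRSham and 299 ± 94.8 in IR (mean ± SD, n = 4). Bst2 followed, at 47.9 ± 12.9, 207 ± 52.9, 68.5 ± 17.2 and 227 ± 63.2 TPM in the same order. Lgals3bp came next at 26.1 ± 9.14, 109 ± 19.6, 36.9 ± 9.80 and 142 ± 45.3 TPM, and then Isg15 at 14.1 ± 7.44, 67.7 ± 21.7, 22.1 ± 12.4 and 79.5 ± 18.2 TPM. At the low end Ifih1 was at 1.69 ± 0.657, 3.29 ± 0.825, 1.75 ± 0.674 and 3.59 ± 0.573 TPM and Oas3 at 0.914 ± 0.787, 4.82 ± 0.872, 1.89 ± 1.40 and 6.24 ± 2.88 TPM. Within MI and within IR, the levels of Ifi27l2a and Bst2 overlapped in their ranges of mean ± SD. The 2 genes were not tested against each other. Between groups, this scale can part from TMM-scaled CPM, and the median of all genes rose on it, as given below. For Ifi27l2a the mean CPM was 34.5, 38.0, 54.1 and 74.5 in the same order of groups. Its change was called in neither injury by edgeR (adjusted p = 0.74 in MI and 0.268 in IR).

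Tested by limma on log2(summed TPM + 1), all 37 genes were called higher in MI and 35 in IR (all but Ifi27l2a and Gbp3), where 66.3% and 62.3% of 14314 genes were. The median log2 difference of the 37 genes on this scale was 1.19 in MI and 1.05 in IR, and that of all genes 0.70 and 0.57.

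The study concerns alternative splicing, and the transcripts of these genes were therefore tested too. The TPM table lists 156 annotated transcripts of the 37 genes, and 82 had a mean of at least 1 TPM. By limma on log2(TPM + 1), 62 of the 82 were higher in MI and 0 lower (49% and 10.1% of 40489 transcripts tested). In IR 60 were higher and 1 lower (42.5% and 9.23% of all). On this scale the median transcript shifted upward: the median log2 difference over all transcripts was 0.60 in MI and 0.48 in IR. Over the tested transcripts of these genes it was 0.89 and 0.90. The transcript that was lower in IR was Stat2-206, a retained-intron transcript at 1.39, 1.19, 3.599 and 1.43 TPM in IRSham and 0, 1.11, 0 and 1.76 TPM in IR. It was at 0.206, 0, 0.614 and 0.176 TPM in MISham and 1.96, 1.92, 1.68 and 2.47 TPM in MI. The MI libraries all lay above the MISham libraries, whereas IR held both lower values and 1 value within the IRSham range. On the log2(TPM + 1) scale the change was 1.28 ± 0.33 in MI (adjusted p = 0.00368) and -0.83 ± 0.33 in IR (adjusted p = 0.0456), and the difference of the responses had an adjusted p of 0.104. The lower call of Stat2-206 in IR was lost with a pseudocount of 0.1, with no filter on low TPM, and without IRSham replicate 1, 3 or 4 or IR replicate 1 or 3. The main coding transcript Stat2-201 rose in both, by 0.86 ± 0.19 and 0.86 ± 0.19.

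Shares of a gene's TPM held by each transcript could be tested for 69 transcripts of 20 of these genes. Of these, 0 changed by at least 10 percentage points at an adjusted p under 0.05 in MI or in IR by limma, where 5.92% and 3.88% of 25610 transcripts did. The share of Stat2-206 fell short of the 10 points in IR, with a change of -8.77 ± 2.08 points (SE, limma adjusted p = 0.0265). Its mean share was 11.3% in IRSham and 2.50% in IR. In MI its share changed by 6.85 ± 2.08 points (limma adjusted p = 0.0623). At an unadjusted p under 0.05, 8 transcripts passed in MI and 10 in IR. The number called reached 1 in MI without MISham replicate 4, and in IR 2 without IR replicate 3 and 1 without IRSham replicate 1, IRSham replicate 3 or IR replicate 4.

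Upstream of these genes, transcripts of the interferons themselves were at the limit of detection. None of 21 interferon genes passed the filter on low counts, and 12 had 0 counts in all 16 libraries. Ifnb1, the gene of interferon beta, had 2 counts in MI replicate 3 and 0 in every other library. A count of 0 allows up to 3 counts per library, for counting error alone, so levels below that were not detectable at this depth. Ifng, the gene of interferon gamma, had 0, 0, 10 and 0 counts in IRSham, 0, 6, 4 and 0 in IR, 0, 0, 0 and 0 in MISham and 1, 2, 0 and 0 in MI. IRSham replicate 3, the library with the highest level of most of these 37 genes, was thus the sham library with Ifng counts, and IR replicate 2 had the most among the injured; their part in those levels was not tested.

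Of 22 receptor and signalling genes, 13 rose and 4 fell in MI and 10 rose and 4 fell in IR. The type I receptor genes both rose: Ifnar1 by 1.17 ± 0.08 in MI and 0.91 ± 0.08 in IR, and Ifnar2 by 0.82 ± 0.10 and 0.65 ± 0.10. The chains of the interferon gamma receptor moved apart, Ifngr1 rising by 0.72 ± 0.09 and 0.57 ± 0.09, while Ifngr2 changed by -0.81 ± 0.08 and -0.82 ± 0.08. Ifnlr1 and Il10rb, which form the receptor of interferon lambda, fell, with log2 changes of -1.20 ± 0.23 and -0.83 ± 0.07 in MI. The largest rises were those of Irf5 (1.90 ± 0.29) and Ptpn6 (1.89 ± 0.27) in MI and of Irf5 (1.61 ± 0.29) and Irf8 (1.58 ± 0.21) in IR.

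Of 24 tested genes of nucleic acid sensing, 21 rose and 1 fell in MI and 20 rose and 1 fell in IR. The endosomal RNA receptors Tlr8 (2.22 ± 0.28 in MI, 2.06 ± 0.27 in IR) and Tlr7 (2.08 ± 0.21 and 1.79 ± 0.20) rose most. Mavs, the mitochondrial adaptor of the cytosolic RNA receptors, changed by -1.18 ± 0.10 and -0.999 ± 0.098. Of 86 other interferon-stimulated genes tested, 49 rose and 6 fell in MI and 38 rose and 3 fell in IR; their medians, 0.55 and 0.35, lay below those of the 37. Among the called genes of that list, Ifi27l2b (5.26 ± 0.80) and Ifi30 (2.49 ± 0.32) rose most in MI, and Ifi27l2b (2.82 ± 0.57) and Slfn9 (2.05 ± 0.29) in IR. Of the called genes, Ifit1bl2 (-1.75 ± 0.28) and Gbp6 (-1.25 ± 0.39) fell most in MI, and Ifit1bl2 (-1.42 ± 0.28) and Iigp1 (-1.39 ± 0.43) in IR. Of 26 antigen presentation genes 18 rose and 2 fell in MI and 16 rose and 2 fell in IR. In MI Ciita (1.23 ± 0.22) and Psmb8 (1.21 ± 0.21) rose most, in IR H2-DMa (0.90 ± 0.21) and H2-DMb1 (0.90 ± 0.22), and Psme1 (-0.76 ± 0.08, -0.49 ± 0.08) and Erap1 (-0.19 ± 0.06, -0.26 ± 0.06) fell in both.

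Markers of other cell types moved with the same groups. The 13 monocyte and macrophage markers, none of which was at 0 in any library, summed to 1506, 635, 1129.8 and 714 CPM in MISham and 3618, 4005, 2815 and 3708 CPM in MI. They summed to 1149, 1583, 1669 and 1858 CPM in IRSham and 5172, 4859, 3200.4 and 5639.6 CPM in IR. In MISham the order of the replicates, 1 above 3 above 4 above 2, was the order of the summed level of the 37 genes as well. In IRSham it was not: replicate 3 was highest for the 37 genes and replicate 4 for the macrophage markers, and in IR replicate 4 for the markers and replicate 2 for the 37 genes. The 11 T, B and NK cell markers summed to 8.54, 13.7, 9.75 and 9.64 CPM in IRSham, with replicate 2 highest, and to between 5.51 and 10.99 CPM in MISham, 13.7 and 16.3 in MI, and 13.4 and 19.2 in IR. Cardiomyocyte markers fell by a median of 2.201 on the log2 scale in MI and by 1.78 in IR. Neutrophil markers (10, of which 7 were tested) summed to a median of 67.4 CPM in MISham, 283 in MI, 83.0 in IRSham and 160.4 in IR, and 6 rose in MI and 3 in IR. The 8 fibroblast markers summed to a median of 5653, 16929, 7249 and 19848 CPM in the same order, and 5 rose and 2 fell in MI and 6 rose and 1 fell in IR. All 6 cell cycle genes rose in both injuries, from a median sum of 46.7 to 517 CPM in MI and of 72.6 to 474 CPM in IR. Among the MISham libraries, fibroblast sums ranged from 3603 to 8419 CPM and cell cycle sums from 33.5 to 91.9 CPM, with replicate 3 highest and replicate 2 lowest in both. Of 9 dendritic cell markers 6 rose and 1 fell in MI and 4 rose and 1 fell in IR, and of 8 endothelial markers 3 rose and 3 fell in MI and 1 rose and 4 fell in IR. The part of cell content in the changes of the 37 genes was not tested.

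**Figure D5:**
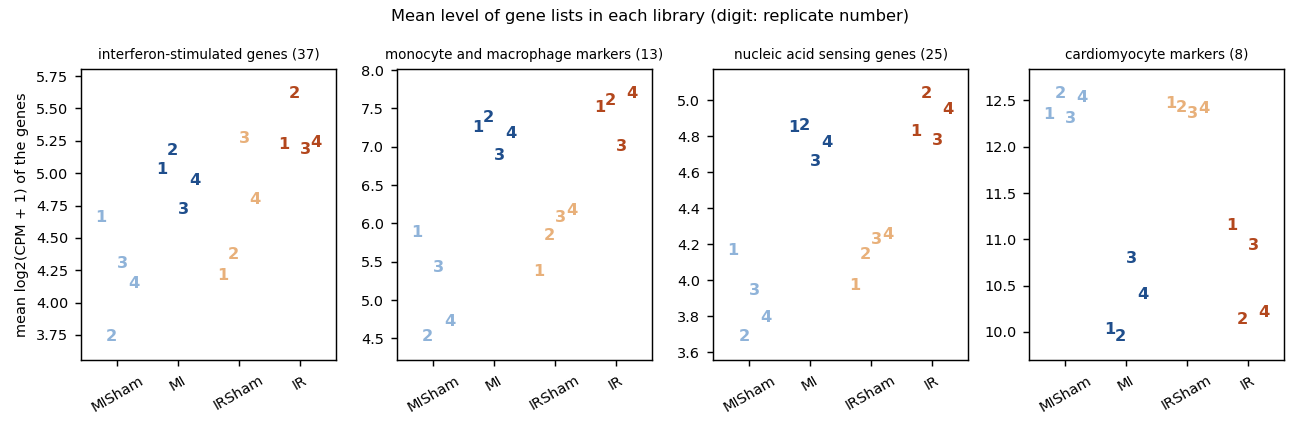
Mean log2(CPM + 1) of the 37 interferon-stimulated genes, 13 monocyte and macrophage markers, 25 nucleic acid sensing genes and 8 cardiomyocyte markers in each library; digits are replicate numbers, and each panel has its own vertical axis, which does not start at 0. IRSham replicate 3 stands apart in the first panel, at 5.27 against 4.21 to 4.80 in the rest of its group, and not in the other 3 panels; the 90 other interferon-stimulated genes, not drawn, stood at 4.24 there against 3.51 to 3.95.

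Calls were also counted separately for genes with and without an ISRE core in the promoter window. Of the 16 with a match 9 rose in MI and 8 in IR, and of the 11 without one 6 rose in MI and 6 in IR. Their median log2 fold changes were 0.68 and 0.57 in MI and 0.59 and 0.41 in IR. The excess of IRSham replicate 3 over replicates 1 and 2 had a median of 2.29-fold over the genes with a match and 1.54-fold over those without. Isg15 and Gbp7, whose windows are printed above, both hold ISRE cores, and their changes in MI were 1.51 ± 0.39 and 0.06 ± 0.22.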

How the data were processed

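Poly(A) RNA of mouse heart tissue was sequenced as 16 short-read libraries, 4 in each of 4 groups, and grouped by the labels; the 4 long-read libraries, 1 per group, were left out and not analysed here. Gene values are raw counts as deposited by the authors, not normalized. Transcript values are TPM, also computed and deposited by the authors. Per the submitters' processing notes, the genome was GRCm39 and the tools were kallisto 0.50.1, featureCounts 2.0.1, HISAT2 2.2.1 and SAMtools 1.7; the role of each tool, the annotation release and the strand setting are not given in the sources used here. Without the strand setting, reads of a gene and of an antisense gene cannot be told apart; 1 ID, antisense to Gbp3, bears on these genes. GENCODE M21, matched by ID, gave 52080 of 63318 gene IDs a symbol and 138330 of 163740 transcripts a gene. That annotation and the RefSeq promoter windows are on GRCm38, so no coordinate of theirs was set against the files. In the transcript table, 2 columns name no sample and were not used.

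Gene counts were filtered with filterByExpr (minimum count 10, minimum total 15), scaled by TMM and fitted with edgeR 4.0.16 (R 4.3.3), all 16 libraries together and each group with its own mean, using the robust setting. Every adjusted p of a gene comes from the quasi-likelihood test of edgeR, adjusted after Benjamini and Hochberg over 19741 genes, and the threshold was 0.05. CPM is the counts-per-million value, TMM-scaled; errors of means are SD and those of fold changes SE. Transcripts with a mean of at least 1 TPM were tested with limma 3.58.1 on log2(TPM + 1), a scale that understates the change of low transcripts. Shares were tested with limma for transcripts holding at least 5% of a gene of at least 5 summed TPM with at least 2 such transcripts, and called at a change of at least 10 percentage points. Each fit across genes or transcripts was tested on simulated data. Libraries of a group differed by more than sampling noise, so none was counted as a duplicate. Sequence shared between genes was measured over 50-base stretches of GENCODE M21 transcripts. Total counts ranged from 24273984 to 63070805 per library. The limit of 3 counts that a count of 0 allows covers counting error only. The SD and SE values include variation from library to library.

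The 37 genes and the other gene lists were chosen with earlier results of these data known. All 37 were to be named, with values in every library for Isg15, Bst2, Ifit1, Ifit3, Ifit3b, Irf7, Irf9, Irf1, Stat2, Oas1a, Oas2, Usp18, Mx1, Mx2, Zbp1, Cxcl10, Gbp2, Lgals3bp, Ifi204, Ifi27l2a and Rsad2, and for any of the 37 called between the sham groups or in the difference of responses. From the other lists the rule named the 2 genes that changed most in each direction, the interferon genes and their receptors; 1 further gene that the rule named is not reported here. The library values of Oas3, Gbp7 and Gbp3 were added after they were seen. Alternatives were DESeq2 size factors, library size alone, no filter, a replicate block, fits of only the 2 groups compared, DESeq2 1.42.0, another TPM pseudocount (0.1), no TPM filter, summed TPM and each library left out. Pairs of libraries left out together (MISham 1 and 3, IRSham 3 and 4, IR 1 and 3) were chosen after seeing the data. Tables and figures were made with Python 3.11.15, pandas 2.3.3 and matplotlib 3.10.9.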

Additional observations from a re-analysis of the deposited data

Results flagged for a closer look

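Each of the 37 genes in each of the 4 groups was examined for 1 library far from the other 3 (a gap, as a share of the range of the group, above Dixon's 95% critical value for 4 samples), which chance gives in about 1 of 20 groups. Of 148 sets of 4 values, 14 had such a library. In IRSham it was replicate 3, on the high side, for 6 genes. Ifit2 stood there at 66.0 CPM against 27.5 to 33.7 in the rest of the group, Ifi44 at 18.4 against 8.09 to 9.15, and Irf9 at 59.9 against 41.5 to 42.9. Mx2 stood at 7.57 CPM against 5.33 to 5.56, the nucleotide kinase gene Cmpk2 at 34.7 against 18.8 to 20.2, and Gbp7 at 59.7 against 25.8 to 30.1.

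In IR it was replicate 2, on the high side, for 5 genes. Isg15 stood there at 39.0 CPM against 29.8 to 31.2 in the other 3 libraries, Oas3 at 33.2 against 18.4 to 20.7, and Irf9 at 68.1 against 54.8 to 56.1. Zbp1 stood at 34.5 CPM against 20.2 to 21.9, and Samd9l at 57.1 against 45.9 to 46.9.

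Among the remaining 3, Rsad2 was high in MISham replicate 3, at 47.7 CPM against 36.7 to 38.5. Ifih1 was low in MI replicate 3, at 24.8 CPM against 30.04 to 30.69, and Ifi27l2a was low in IR replicate 3, at 44.7 CPM against 83.0 to 86.7. The cause of these values was not tested.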

How the results depend on the processing

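Under every alternative run, 0 of the 37 genes were called lower in either injury and 0 in the difference of responses. The number called higher in MI (21) lay between 15 and 24 under the other count fits, rose to 33 with library size alone and 37 with summed TPM, and ranged from 15 to 25 with 1 library left out. The 18 called in IR fell to 9 with no filter on low counts and 12 without IR replicates 1 and 3, rose to 32 without IRSham replicates 3 and 4 and to 35 with summed TPM, and ranged from 8 to 29 with 1 library left out. Between the sham groups, 0 genes were called lower in MISham, 1 by DESeq2, 7 without MISham replicates 1 and 3, and 0 to 4 with 1 library left out. Genes without overlap in IR, 11, became 20 with library size alone and 11 to 29 with 1 library left out. Library size alone raised the median of all genes by 0.29 in IR. The share of all genes without overlap under these settings is not given, so these counts are not read as particular to the 37 genes. The 1 transcript lower in IR became 0 with a pseudocount of 0.1, 0 with no TPM filter and 0 to 1 with 1 library left out; transcript shares gave 0 to 1 in MI, and 0 to 2 higher and 0 to 1 lower in IR. The calls over all genes are given above for library size alone and for summed TPM, and not for the other alternatives. The causes were not tested.

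Deviations of same-numbered libraries correlated weakly (correlations from -0.162 to 0.149). Weak correlations cannot exclude a pairing by number, and the main fits used none. With the replicate block, 18 genes were called in MI (without Stat2, Ifih1 and Parp14), 15 in IR (without Oasl2, Ifit3 and Irf9), and 0 transcripts were lower in IR.

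Of 1221 values of single genes under alternatives, 997 kept direction and call, 92 gained a call, 117 lost one and 15 changed sign; those 15 belong to changes that were not called with all libraries. With 1 library left out, Ifi27l2a in MI ranged from -0.047 (without MISham replicate 4; -0.032 without 2) to 0.47, Rsad2 in MI from -0.0094 (without MI replicate 2) to 0.21, and Gbp7 in MI from -0.019 (without MISham replicate 3) to 0.12. Irf1 in IR ranged from -0.060 (without IRSham replicate 4; -0.0077 without 1, -0.0037 without 2, -0.0024 without IR replicate 3) to 0.23, and Gbp3 in IR from -0.058 (without IRSham replicate 1) to 0.51. Gbp7 in IR ranged from -0.17 to 0.33 (without IRSham replicate 3; 0.029 and 0.0097 without IR replicate 1 or 4), and was at 0.24 with library size alone, 0.40 without IRSham replicates 3 and 4, and 0.51 with summed TPM. Depth limits the interferon genes, which lay at or near 0 counts.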
